A study of Mus musculus with 10 samples.

Results

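GLUT-family hexose transporters are the membrane proteins, encoded by the Slc2a genes, through which glucose and related sugars enter cells and move between compartments. The family was taken as 5 genes of the deposited table, Slc2a1, Slc2a3, Slc2a5, Slc2a6 and Slc2a8, chosen by name out of its 10141 genes. They are not the whole family, and Slc2a13, which also has a row, is described separately. They were followed in GFP+ leukaemia cells, which carry the MLL-AF9 fusion and a GFP reporter, and in GFP-negative CD11b+ myeloid cells of the surrounding bone marrow, with 5 libraries in each group. MLL-AF9 joins a histone methyltransferase gene to AF9 and drives acute myeloid leukaemia, and CD11b is an integrin of mature myeloid cells. CD45.1 recipient mice had received the leukaemia cells by tail-vein injection. Both populations came from bone marrow taken once GFP+ cells had reached 2% of the peripheral blood, so the myeloid cells also come from leukaemic animals. The genotype label of every library reads MLL-AF9/GFP and the cell type label of every library names leukaemia cells, so the groups follow the sample titles. The design text describes magnetic selection of CD45.2-negative CD11b+ cells, whereas the sample protocol describes flow sorting. Age, sex and background strain of the mice are not in the labels. The labels do not say whether each library is a mouse of its own. The p-values below therefore cover the spread among these libraries alone, which may be technical.

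Glucose crosses the plasma membrane down its gradient through these carriers and is trapped inside by phosphorylation. GLUT1 (Slc2a1) serves basal uptake in most cells, and GLUT3 (Slc2a3) is a high-affinity carrier best known from neurons and also used by leukocytes. GLUT5 (Slc2a5) carries fructose, while GLUT6 (Slc2a6) and GLUT8 (Slc2a8) sit mostly on internal membranes, where lysosomal and endosomal roles have been described. Mature neutrophils rely strongly on glycolysis. The series title names the partitioning of glucose in leukaemic marrow as its subject.

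The 2 groups differed in which transporter gene dominated. In leukaemia cells the reads of the family were spread over Slc2a6, Slc2a1 and Slc2a3, while in myeloid cells Slc2a3 alone supplied 85.2 ± 0.894% of them (SD, n = 5). Slc2a3, Slc2a6 and Slc2a1 were lower in leukaemia cells and Slc2a8 was higher with the authors' scaling. The decrease of Slc2a1 depended on that scaling. Slc2a5 was a low-level gene seen in every leukaemia library and in a single myeloid library.

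Upstream sequences are shown for Slc2a1 and Slc2a6, which were both lower in leukaemia cells with the authors' scaling, and for Slc2a8, which was higher. They are the 250 bases before the annotated start in RefSeq (GRCm38.p6, 5′ to 3′ on the gene's own strand), and 4 of the 5 members matched that table; Slc2a3 did not. Capitals mark matches on either strand to ACGTG or GCGTG (forms of the core bound by hypoxia-inducible factors), GGGCGG (the GC box bound by Sp factors) and CCAAT (the CCAAT box). The Slc2a1 window lies at chr4:119108495-119108744 on the plus strand, the Slc2a6 window at chr2:27027999-27028248 on the minus strand, and the Slc2a8 window at chr2:32982084-32982333 on the minus strand.
Slc2a1: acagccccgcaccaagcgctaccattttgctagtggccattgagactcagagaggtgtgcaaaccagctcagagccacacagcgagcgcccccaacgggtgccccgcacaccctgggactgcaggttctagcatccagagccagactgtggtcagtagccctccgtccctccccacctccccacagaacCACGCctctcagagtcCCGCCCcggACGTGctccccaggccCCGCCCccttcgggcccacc
Slc2a6: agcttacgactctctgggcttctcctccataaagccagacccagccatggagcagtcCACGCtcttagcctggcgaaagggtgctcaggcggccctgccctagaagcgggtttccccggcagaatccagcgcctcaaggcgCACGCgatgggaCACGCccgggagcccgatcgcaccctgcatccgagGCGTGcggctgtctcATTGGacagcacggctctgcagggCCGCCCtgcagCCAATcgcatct
Slc2a8: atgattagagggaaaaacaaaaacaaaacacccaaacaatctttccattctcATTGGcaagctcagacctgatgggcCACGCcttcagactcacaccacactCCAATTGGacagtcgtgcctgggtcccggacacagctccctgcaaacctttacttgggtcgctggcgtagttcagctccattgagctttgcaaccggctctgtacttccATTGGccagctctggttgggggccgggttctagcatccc

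The 3 windows differed in their matches. The Slc2a1 window held 1 ACGTG, 1 GCGTG and 2 GGGCGG matches and no CCAAT. The Slc2a6 window held 4 GCGTG matches, a number reached by 0.85% of 32851 RefSeq promoter windows of the same length, with 1 GGGCGG and 2 CCAAT matches. The Slc2a8 window held 4 CCAAT matches, 2 of which overlap in CCAATTGG, a number reached by 0.84% of the windows, with 1 GCGTG and no GGGCGG match. None of the 3 held CACGTG, the E-box bound by Myc, which contains ACGTG and which 6.0% of all windows hold. At least 1 match was present in 16.6% of windows for ACGTG, 28.2% for GCGTG, 32.7% for GGGCGG and 33.8% for CCAAT. The GC content was 66.4% for Slc2a1, 65.2% for Slc2a6 and 52.8% for Slc2a8, against a median of 52.4% over all windows. A match is a run of letters and not a measured binding site.

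The deposited values are variance-stabilised log2 values, from which reads were recovered, and normalised reads are those reads divided by each library's size factor. The 10141 genes held 24099551 to 30879571 recovered reads per leukaemia library and 24712749 to 32247803 per myeloid library. Normalised reads summed to 22456393 ± 214530 in leukaemia and 35023404 ± 2549204 in myeloid cells (mean ± SD, n = 5 each), a ratio of 1.56 in favour of myeloid cells, so the authors' size factors and the total of the table are different rulers. No tested gene had an absolute log2 difference below 0.108, so genes of no or small difference are not in the table. Of 8079 genes tested with limma, 99.8% passed an adjusted p of 0.05 and the groups did not overlap for 86.8%, so passing sets no gene apart here, and the sizes of the differences are given instead. Of the sort genes, Itgam, the CD11b gene, averaged 12227 ± 1128 normalised reads in the leukaemia libraries and 97794 ± 13874 in the myeloid ones. CD11b RNA was thus present in both groups. Ptprc, the CD45 gene, averaged 13376 ± 2449 in leukaemia and 68302 ± 3507 in myeloid libraries. The marker gene Hoxa9, a target gene of the fusion, had 3215 ± 329 in leukaemia and 16.0 ± 5.3 in myeloid cells. The 10 neutrophil markers, all in the table and none at 0 throughout a group, summed to 67019 to 71867 normalised reads in leukaemia libraries and 2809846 to 4461830 in myeloid libraries. Of 7 leukaemia markers, 6 were in the table and summed to 18003 to 24794 in leukaemia libraries and 1942 to 3025 in myeloid libraries. Of these 5 were higher in leukaemia, while Flt3 was lower, at 155.2 ± 29.5 in leukaemia and 422.4 ± 107 in myeloid libraries. The part of cell composition in the results below was not tested. In bulk samples, fewer cells of a type and less RNA per cell cannot be told apart, and no normal immature marrow cells were analysed here.

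Slc2a3, the GLUT3 gene, had 719, 566.5, 715, 602 and 653 normalised reads in leukaemia libraries 1 to 5, against 25198, 36262, 29046, 34473 and 28596 in myeloid libraries 1 to 5. Every myeloid library lay far above every leukaemia library, and myeloid replicates 2 and 4 were the highest. Slc2a3 was 47.2-fold lower in leukaemia as a ratio of mean normalised reads. Limma voom on recovered reads with the authors' size factors gave a log2 difference of -5.55. On the variance-stabilised scale, which compresses genes with few reads, it was -4.74 (limma, SE 0.0938, adjusted p = 5.89e-13). Folds below are such ratios, and log2 differences are on that scale unless voom or the table total is named. The difference of -4.74 was the 19th lowest of 8079 genes, and 0.25% of the tested genes differed by as much in either direction. In RPM (recovered reads scaled to the same total in every library of the table), Slc2a3 averaged 29.0 ± 3.26 in leukaemia and 873 ± 68.4 in myeloid cells (mean ± SD, n = 5 each), so its decrease holds under both scalings.

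Slc2a1, the GLUT1 gene, had the smallest fold of the 5. It had 812, 989, 862, 848 and 991 normalised reads in leukaemia libraries 1 to 5, against 1122, 1522, 1465, 1260 and 1666 in myeloid libraries 1 to 5. The groups did not overlap on this scale, and Slc2a1 was 1.56-fold lower in leukaemia. The limma log2 difference was -0.45 (SE 0.0787, adjusted p = 0.000125), a size that 67.7% of the tested genes reached. Limma voom with the authors' size factors gave -0.63 for Slc2a1. In RPM the groups overlapped, at 36.3, 43.65, 38.8, 37.4 and 44.3 in leukaemia and 34.5, 39.9, 43.8, 33.7 and 49.6 in myeloid libraries. With limma voom scaled to the table total the log2 difference was 0.01, with a 95% interval of -0.23 to 0.25 (adjusted p = 0.946). The fold of Slc2a1 is close to the ratio of the normalised totals, so for this gene the size factors decide whether a difference is called. An annotated gene on the opposite strand, Gm12868, shares 105 exon bases with Slc2a1, and the strand setting of the counting is not stated in the labels, so those reads cannot be assigned.

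Slc2a5, the fructose transporter gene, had 48, 47, 25, 24 and 51 recovered reads in leukaemia libraries 1 to 5 and 0, 6, 0, 0 and 0 in myeloid libraries 1 to 5. All leukaemia libraries exceeded all myeloid ones, but the level was low: 31.5 ± 12.2 normalised reads in the leukaemia group and 1.42 ± 3.17 in the myeloid group (SD, n = 5 each), 22.2-fold higher in leukaemia on a myeloid mean that rests on those 6 reads. A count of 0 allows up to 3 reads, which is 3.5 to 4.08 normalised reads in the 4 myeloid libraries without a read, for counting error only. It lay below the filter on low values and was not among the genes tested. With no filter, where 99.5% of 10141 genes passed, its log2 difference was 0.42 (limma adjusted p = 2.45e-05). Myeloid replicate 2, the library with the 6 reads, had 536.6 summed normalised reads of 6 B cell markers, near the low end of its group. Myeloid libraries 1, 3, 4 and 5 had 2249, 1184, 483 and 1033. The neutrophil marker sum of replicate 2 was the highest of the group. The source of the 6 reads was not tested.

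Slc2a6, the gene of the lysosome-associated GLUT6, had 1350, 1180, 811, 916 and 807 normalised reads in leukaemia libraries 1 to 5, against 3546, 4508, 3041, 4487 and 3445 in myeloid libraries 1 to 5. Leukaemia replicates 1 and 2 were the highest of their group, and myeloid replicates 2 and 4 of theirs, with no overlap between groups. Slc2a6 was 3.76-fold lower in leukaemia. The limma log2 difference was -1.51 (SE 0.121, adjusted p = 6.51e-08), and 11.8% of the tested genes differed by as much. Limma voom with the authors' size factors gave -1.92 for Slc2a6. In RPM it averaged 45.1 ± 10.7 in leukaemia and 108 ± 11.9 in myeloid cells, which keeps the direction.

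Slc2a8, the gene of the intracellular carrier GLUT8, went the other way. It had 221, 306, 290, 296 and 285 normalised reads in leukaemia libraries 1 to 5, against 114, 100.5, 90.4, 165 and 126 in myeloid libraries 1 to 5. Leukaemia replicate 1 was the low library of its group and myeloid replicate 4 the high library of its own, and still the groups did not overlap. Slc2a8 was 2.34-fold higher in leukaemia (limma log2 difference 0.46, SE 0.0635, adjusted p = 1.43e-05), a size on the variance-stabilised scale that 66.6% of the tested genes reached. Because that scale compresses genes with few reads, the log2 difference of Slc2a8 understates the change: limma voom on recovered reads gave 1.25 with the authors' size factors and 1.89 scaled to the table total. Its mean deposited value was 9.54 in leukaemia and 9.09 in myeloid libraries, where the filter on low values lies 1 unit above 8.1823. Slc2a8 thus passed that filter only through its leukaemia libraries, so its adjusted p is a description.

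**Figure D1:**
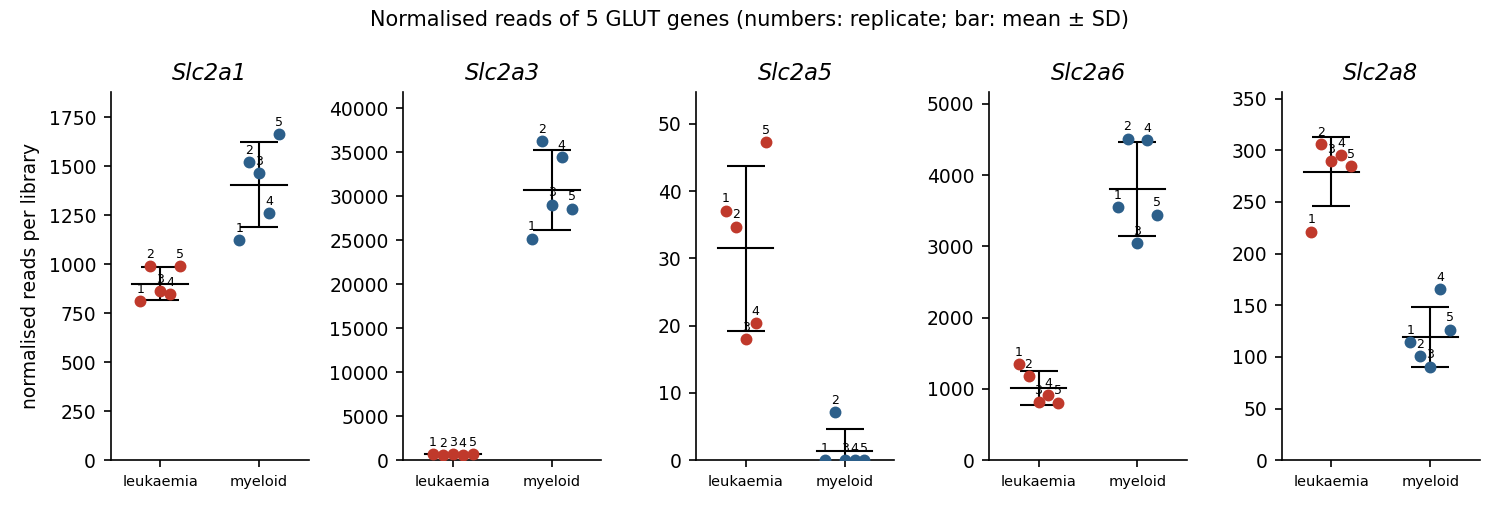
Normalised reads (linear axis from 0, own scale per gene) of the 5 GLUT genes in each leukaemia library and each myeloid library; points are libraries with their replicate numbers and bars are mean ± SD (n = 5 each). Slc2a1, Slc2a3 and Slc2a6 sit lower in leukaemia, Slc2a8 and the low-level Slc2a5 higher, and the groups do not overlap for any of the 5 on this scale.

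Of the 4 members that passed the filter on low values, 1 was higher and 3 lower in leukaemia, where 49.1% of all tested genes were called higher and 50.7% lower, so this count is near the background. The higher member, Slc2a8, passed the filter only through the group where it is high, so its direction in this count is no separate support. The groups did not overlap for any of the 4, as for 42.4% of tested genes in the higher and 44.3% in the lower direction. Scaled to the table total, 1 was higher and 2 lower, against 57.2% higher and 27.6% lower of all genes, and with quantile normalisation 1 was higher and 3 lower, against 47.0% and 41.0%. The median log2 difference of all tested genes was -0.16 with the deposited values, and with voom it was -0.21 with the authors' size factors and 0.43 scaled to the table total. Counted from the voom median, which the 2 scalings move together with every gene, the log2 difference was -5.34 for Slc2a3, -1.71 for Slc2a6, -0.42 for Slc2a1 and 1.46 for Slc2a8. That median comes from a table without genes of no or small difference and is not a level of no change.

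**Figure D2:**
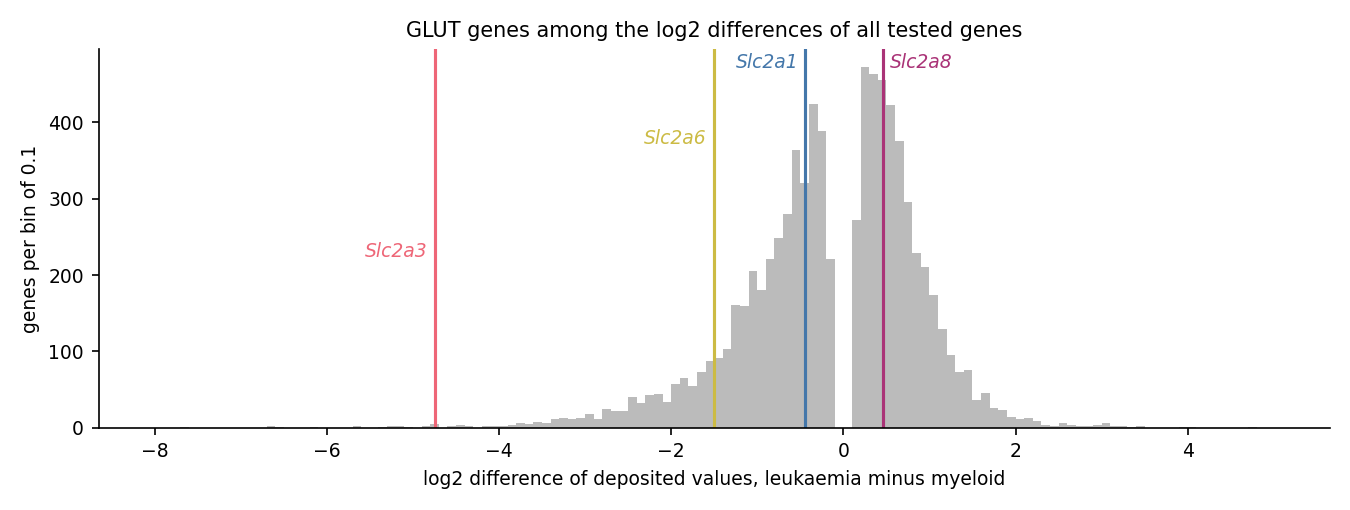
Histogram of the log2 difference of deposited values, leukaemia minus myeloid, for 8079 tested genes (bins of 0.1), with vertical lines at 4 GLUT genes. Slc2a3 at -4.74 lies in the far left tail, Slc2a6 at -1.51 in the left shoulder, and Slc2a1 at -0.45 and Slc2a8 at 0.46 within the bulk; the empty space around 0 shows that genes of small difference are not listed.

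The members also differed in how much they varied within a group. In leukaemia the coefficient of variation over 5 libraries was 9.31% for Slc2a1, 10.4% for Slc2a3, 12.0% for Slc2a8, 23.9% for Slc2a6 and 38.8% for Slc2a5. Counting error alone would give 2.97% for Slc2a1, 3.49% for Slc2a3, 5.33% for Slc2a8, 2.79% for Slc2a6 and 16.0% for Slc2a5 at their mean reads. Relative to counting error, Slc2a6 thus had the widest spread in leukaemia. In myeloid cells the coefficients were 15.4% for Slc2a1, 14.8% for Slc2a3, 17.3% for Slc2a6 and 24.4% for Slc2a8, with counting errors of 2.97%, 0.634%, 1.80% and 10.2% in that order of genes. These coefficients are of normalised reads and depend on the size factors. In RPM the myeloid mean ± SD was 40.3 ± 6.65, 873 ± 68.4, 108 ± 11.9 and 3.405 ± 0.750 in the same order. The relative spread of Slc2a3 and Slc2a6 was thus smaller in RPM, and that of Slc2a1 and Slc2a8 changed little. Sequenced reads without molecular identifiers are not independent molecules, so floors and counting errors here cover counting only. Over the whole table, 36 values were of 1 recovered read and 433 of 2, so a recovered read may not be a single independent count. Floors and counting errors would then be too small.

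Compared per kilobase of annotated exon, the order of the members changed between groups. In leukaemia Slc2a6 averaged 315 ± 75.3 normalised reads per kb and Slc2a1 257 ± 23.9 (SD, n = 5), with Slc2a6 above Slc2a1 in 4 of 5 libraries, a gap within the spread of Slc2a6. Slc2a3, at 89.9 ± 9.35, and Slc2a8, at 87.1 ± 10.4, were likewise not separated beyond their spread, and Slc2a5 was lowest at 9.26 ± 3.60 normalised reads per kb. In myeloid cells the order was Slc2a3 at 4239 ± 627, Slc2a6 at 1185 ± 206, Slc2a1 at 401 ± 61.6, Slc2a8 at 37.2 ± 9.06 and Slc2a5 at 0.417 ± 0.932 normalised reads per kb. Each of the first 4 was separated from the next by more than the spread between libraries. Slc2a3, the first in myeloid cells, thus shared the third place with Slc2a8 in leukaemia cells.

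The summed family signal was 2875 ± 217 normalised reads in the leukaemia libraries and 36048 ± 5164 in the myeloid ones, 12.5-fold lower in leukaemia (exact two-sided permutation test, p = 0.00794, the smallest that 5 against 5 libraries allow). It was 7.73-fold lower per kb and 8.01-fold lower in RPM. Slc2a3 accounted for most of this. Without it the sum was 2224 ± 228 normalised reads in the leukaemia libraries and 5333 ± 678 in the myeloid ones, 2.40-fold lower. In RPM it was 99.0 ± 9.83 in leukaemia and 152 ± 9.65 in myeloid cells, 1.53-fold lower (exact permutation test, p = 0.00794 for both).

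Shares of the family sum within a library do not depend on the size factors. Slc2a3 took 22.9, 18.4, 26.5, 22.4 and 23.5% of the family's reads in leukaemia libraries 1 to 5, against 84.05, 85.5, 86.3, 85.4 and 84.5% in myeloid libraries 1 to 5. The groups were far apart, with Slc2a3 the leading gene in every myeloid library and in no leukaemia library. Slc2a1 took 31.4 ± 3.51% in leukaemia and 3.95 ± 0.702% in myeloid cells, and Slc2a6 took 34.9 ± 5.835% in leukaemia and 10.6 ± 1.05% in myeloid cells (mean ± SD, n = 5 each). Slc2a8 took 9.80 ± 1.60% in leukaemia and 0.334 ± 0.0760% in myeloid cells, and Slc2a5 took 1.09 ± 0.409% in leukaemia and 0.00335 ± 0.00748% in myeloid cells. For each of the 5 the groups did not overlap (exact two-sided permutation tests, Benjamini-Hochberg adjusted over the 5 members, adjusted p = 0.00794 for each). These 5 shares sum to the whole, so they are not independent of each other. The groups did not overlap for 86.8% of single tested genes, and shares within other gene families were not computed.

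Per kilobase, Slc2a3 took 11.9 ± 1.74% of the family signal in leukaemia and 72.2 ± 1.44% in myeloid cells, Slc2a6 41.2 ± 6.40% in leukaemia and 20.2 ± 1.85% in myeloid cells, and Slc2a1 34.05 ± 3.99% in leukaemia and 6.92 ± 1.23% in myeloid cells. The length correction lowered Slc2a3, whose annotated exons cover 7.245 kb against 3.209 to 3.506 kb for the other 4. Slc2a6 is the member whose share turned with the choice of sum. Of the 4 genes other than Slc2a3, it made up 45.1 ± 6.86% of the reads in leukaemia and 71.1 ± 4.76% in myeloid cells, lower in leukaemia, while its share of all 5 was higher there (exact permutation test, adjusted p = 0.00794 for both).

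**Figure D3:**
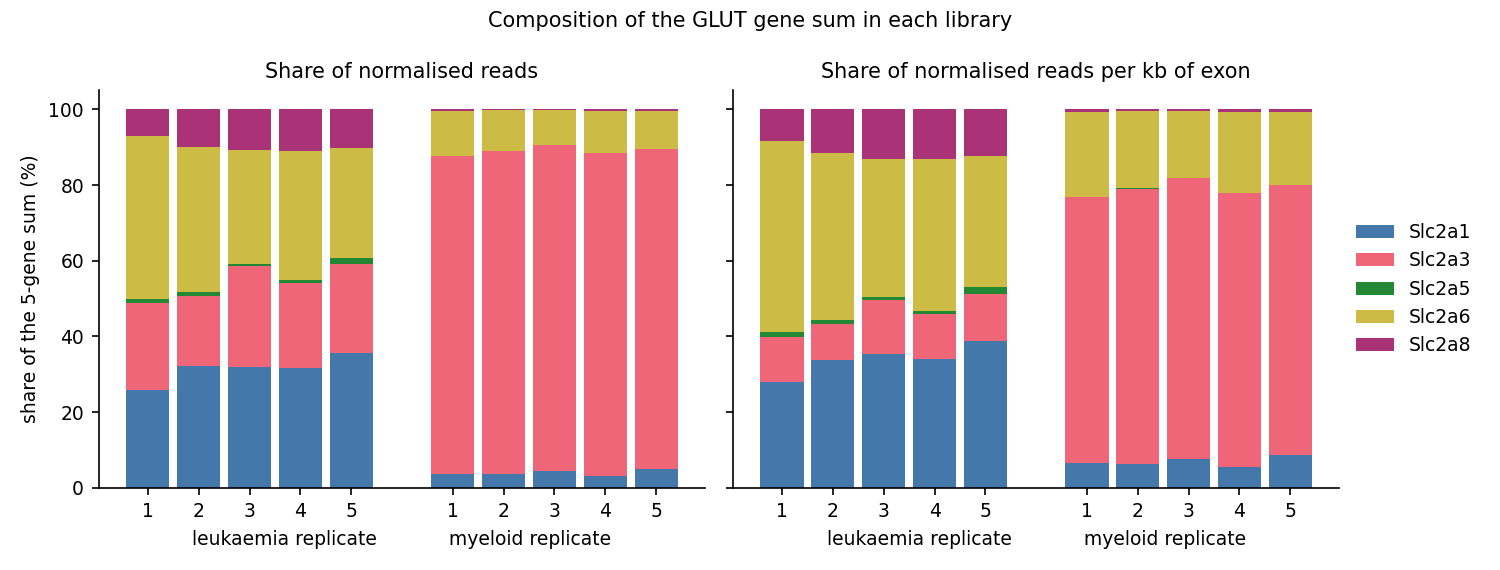
Stacked bars give the share (%) of each GLUT gene in the sum of the 5 genes, by library, leukaemia replicates left and myeloid replicates right in each panel; the left panel uses normalised reads and the right panel normalised reads per kb of exon. Slc2a3 fills 84.05 to 86.3% of every myeloid bar and 18.4 to 26.5% of the leukaemia bars in the left panel.

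Ratios between members within a library gave the same picture pair by pair, for 6 pairs of the 4 genes above the filter. The log2 ratio of Slc2a1 to Slc2a3 was 0.47 ± 0.25 in leukaemia and -4.45 ± 0.26 in myeloid cells (mean ± SD, n = 5 each), a 30.2-fold shift. Slc2a1 therefore had more reads than Slc2a3 in each leukaemia library and fewer in each myeloid library. The log2 ratio of Slc2a1 to Slc2a6 was -0.14 ± 0.39 in leukaemia and -1.43 ± 0.36 in myeloid cells, and that of Slc2a1 to Slc2a8 was 1.69 ± 0.15 in leukaemia and 3.58 ± 0.46 in myeloid cells. The widest shift was that of Slc2a3 to Slc2a8, at 1.22 ± 0.31 in leukaemia and 8.03 ± 0.36 in myeloid cells, 112-fold. The log2 ratio of Slc2a3 to Slc2a6 was -0.61 ± 0.38 in leukaemia and 3.02 ± 0.16 in myeloid cells, and that of Slc2a6 to Slc2a8 was 1.84 ± 0.47 in leukaemia and 5.01 ± 0.30 in myeloid cells. None of the 6 overlapped between groups (exact two-sided permutation tests, Benjamini-Hochberg adjusted over 6 pairs, adjusted p = 0.00794 for each). That p is the smallest that 5 against 5 libraries allow, and 6 ratios of 4 genes are not independent. The groups did not overlap for 86.8% of single tested genes, and ratios of other gene pairs were not computed. The 4 genes thus changed unequally, which holds whatever the scaling.

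**Figure D4:**
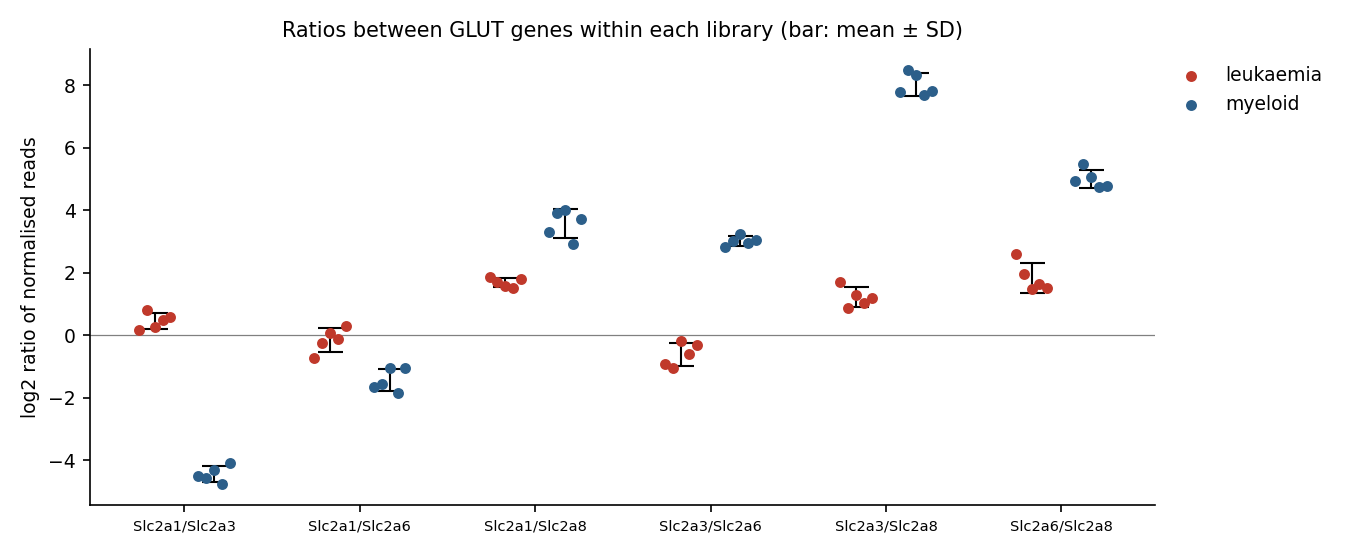
Log2 ratio of normalised reads between pairs of GLUT genes within each library; red points are leukaemia libraries, blue points myeloid libraries, and bars are mean ± SD (n = 5 each). The groups separate for all 6 pairs, from a shift of 1.29 for Slc2a1/Slc2a6 to one of -6.80 for Slc2a3/Slc2a8.

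The 5 myeloid libraries were not alike in their cell type markers. Summed normalised reads of 8 dendritic cell and MHC class II markers were 60839, 5742, 42968, 5846 and 39267 in myeloid libraries 1 to 5. Those of 10 neutrophil markers were 2809846, 4461830, 3051772, 3730528 and 3068144. Replicates 2 and 4, low in the first and high in the second, were also the highest for Slc2a3 and Slc2a6. They also had the largest normalised totals, 38114511 and 37422365, against 32545702 to 33578971 in the other myeloid libraries. In RPM, replicates 2 and 4 had 951 and 921 for Slc2a3, against 774 to 868 in the others. For Slc2a6 they had 118 and 120, against 90.9 to 109. The share of all genes with this pattern was not counted, and a link to cell composition was not tested. Monocyte markers, of which 4 of 7 were in the table, summed to 24369 to 40993 in leukaemia and to 52911 to 98710 in myeloid libraries, with myeloid replicates 2 and 4 the lowest. Macrophage markers, of which 5 of 10 were in the table, did not move as 1 list. Slc40a1, the iron exporter gene, averaged 1578 ± 169 in leukaemia and 11301 ± 2849 in myeloid libraries and was highest in myeloid replicates 2 and 4. Vcam1 went the other way, at 4112 ± 654.5 in leukaemia and 1088 ± 101 in myeloid libraries, and Spic was at 0 reads in myeloid replicates 2 and 4. Their sum was 5126 to 7018 in leukaemia and 11355 to 15798 in myeloid libraries. Dendritic cell and MHC class II markers summed to 1024 to 2380 in leukaemia libraries. No marker of these 4 lists that is in the table was at 0 throughout a group. Without myeloid replicates 2 and 4, the log2 difference was -4.60 for Slc2a3 and -1.36 for Slc2a6 (limma adjusted p = 5.46e-13 and 2.2e-07).

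**Figure D5:**
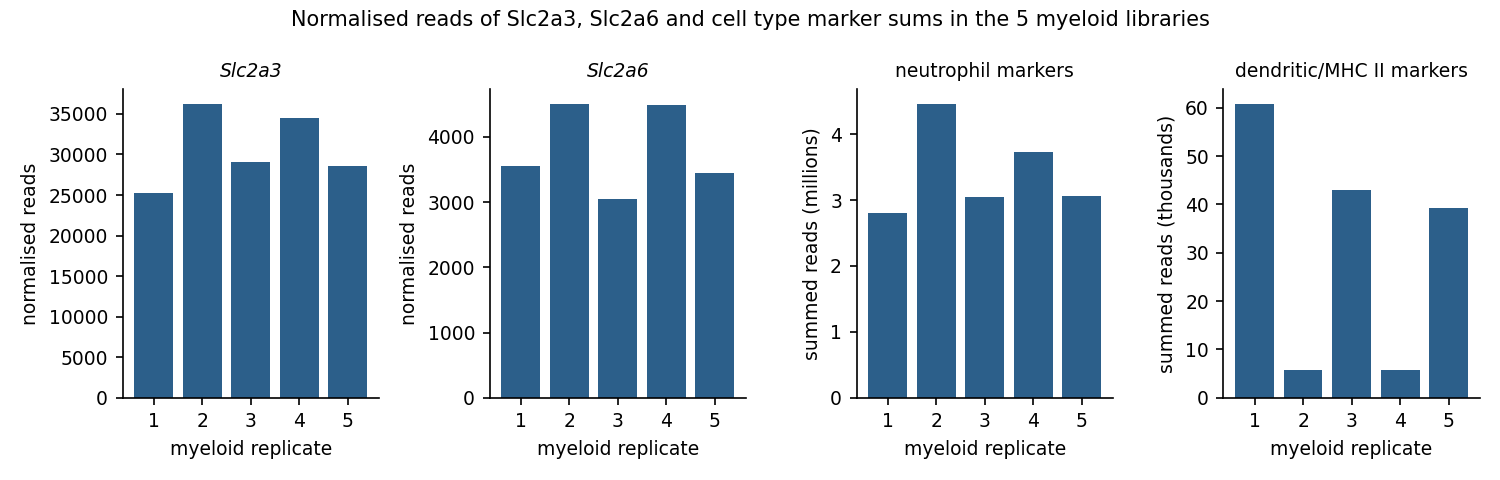
Bars give, for each of the 5 myeloid libraries, the normalised reads of Slc2a3 and Slc2a6 and the summed normalised reads of neutrophil markers and of dendritic cell and MHC class II markers, each on the scale given at its axis. Replicates 2 and 4 are the highest for both transporters and for neutrophil markers and the lowest for dendritic cell and MHC class II markers.

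The genes whose profiles lay closest to each member were named by root mean square distance over the 10 libraries between values centred on each gene's mean, as a description. For Slc2a3 they were Adam8, a metalloprotease gene of leukocytes, at 0.0749, Mxd1, a gene of the Myc network, at 0.0783, and Ctse, the cathepsin E gene, at 0.103, where Slc2a3 itself varied by 2.38 around its mean. Adam8 averaged 330 ± 72.1 normalised reads in the leukaemia libraries and 22797 ± 3395 in the myeloid ones. For Slc2a1 the closest were Lrrc27 (0.0685), Vrk3 (0.0771) and Zkscan14 (0.0884), and for Slc2a6 they were St3gal2 (0.102), Tpm4 (0.105) and H2-T24 (0.108). For Slc2a8 they were Cand1 (0.0450), Uqcc2, an assembly factor gene of respiratory complex III (0.0453), and Atp5s (0.0466), and for Slc2a5, among all genes of the table, Serpina12 (0.0224), Ube2cbp (0.0557) and E130311K13Rik (0.0582). The other members were farther off: the member nearest to Slc2a3 was Slc2a6, at 1.63. These distances are on the variance-stabilised scale, which compresses genes with few reads, so close genes can differ in fold. Cand1 averaged 3170 ± 164 normalised reads in leukaemia and 2114 ± 251 in myeloid libraries. Slc2a8 averaged 279 ± 33.5 in leukaemia and 119 ± 29.1 in myeloid libraries.

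Of 10 other hexose transporter genes, 2 had a row. Slc2a13, the gene of a proton-coupled myo-inositol carrier and thus a family member by sequence, had 112, 102, 160, 101 and 158 recovered reads in leukaemia libraries 1 to 5 and 0 in every myeloid library. With a floor of 3 reads over the group it was at least 138-fold higher in leukaemia, provided that recovered reads are independent counts. Its level was low, at 102 ± 29.0 normalised reads. Slc50a1, the gene of the sugar carrier SWEET1, was 1.23-fold higher, at 632 ± 53.9 normalised reads in the leukaemia libraries and 514.9 ± 68.8 in the myeloid ones (limma log2 difference 0.17, adjusted p = 0.0186), with groups that overlapped. Its size followed the scaling: scaled to the table total the log2 difference was 0.95 (limma voom adjusted p = 8.86e-06), and with quantile normalisation it did not pass. The other 8 were not analysed here.

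Among genes that deliver transporters to the surface or retrieve them, 1 of 18 tested was higher and 17 lower in leukaemia, and the median log2 difference was -0.78, against -0.16 for all genes. Of all tested genes, 49.1% were called higher and 50.7% lower. Scaled to the table total, 5 were higher and 10 lower, against 57.2% and 27.6% of all genes, and with quantile normalisation 3 were higher and 10 lower, against 47.0% and 41.0%. Txnip, whose product promotes the internalisation of GLUT1, was 5.10-fold lower, at 5166 ± 410 normalised reads in the leukaemia libraries and 26361 ± 3107 in the myeloid ones (limma adjusted p = 9.32e-11). Snap23, a gene of membrane fusion, was 4.31-fold lower (limma adjusted p = 9.9e-10). Gipc1, whose product binds the tail of GLUT1, was the higher member, 1.45-fold (limma adjusted p = 0.000108). All 3 kept their direction scaled to the table total.

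Of 13 tested transcription factor genes known to act on transporter genes, 3 were higher and 10 lower, where all tested genes gave 49.1% and 50.7%. Their median log2 difference was -0.34. The direction of the count turned with the scaling: 7 were higher and 4 lower scaled to the table total (57.2% and 27.6% of all genes), and 6 were higher and 4 lower with quantile normalisation (47.0% and 41.0%). Myc, which is known to activate Slc2a1, was 9.12-fold higher in leukaemia, at 3992 ± 460 normalised reads against 437.6 ± 117 in myeloid cells (limma adjusted p = 2.57e-10). Mef2c was 3.93-fold higher, while Mef2a, at 1699 ± 398 in leukaemia and 6430 ± 926 in myeloid cells, was 3.78-fold lower and Sp3 was 2.605-fold lower (limma adjusted p at most 3.2e-08 for the 3), with the same directions scaled to the table total. Hif1a, the hypoxia-inducible factor gene, had a log2 difference of -0.27 with the deposited values (limma adjusted p = 0.00581) and 0.33 scaled to the table total (0.00224), so its direction follows the scaling.

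Of 9 tested genes of the steps after entry, 5 were higher and 4 lower, near the 49.1% and 50.7% of all tested genes, and their median log2 difference was 0.22. Scaled to the table total, 6 were higher and 1 lower, against 57.2% and 27.6% of all genes, and with quantile normalisation 5 were higher and 1 lower, against 47.0% and 41.0%. Adpgk, the ADP-dependent glucokinase gene, was 16.6-fold lower in leukaemia, at 3162 ± 262 normalised reads against 52381 ± 12326 in myeloid cells (limma adjusted p = 3.16e-11). Hk2, a hexokinase gene, was 1.70-fold lower, but its log2 difference was -0.12 scaled to the table total (limma adjusted p = 0.199). Galk1, the galactokinase gene, was 8.0-fold and Akr1b3, the aldose reductase gene that opens the route from glucose to fructose, 2.60-fold higher in leukaemia (limma adjusted p = 3.43e-09 and 2.26e-08), with the same directions scaled to the table total.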

How the data were processed

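RNA sequencing covered 5 leukaemia (GFP+) and 5 myeloid (GFP-CD11b+) samples, with libraries built by a NEBNext Ultra kit per the labels. The authors deposited variance-stabilised log2 values, and HISAT2 (2.0.4 and 2.2.1) and DESeq2 are named in the submitters' processing notes. Genome build, gene annotation, counting tool and strandedness are not given in the sources used here. All libraries share the lowest value, 8.1823, taken as 0 reads. The variance-stabilising function was inverted in its parametric form, under which low values (up to 300 reads) were whole reads in 100.0% of cases within 0.1 read in every library. limma (3.58.1, R 4.3.3) was fitted to the deposited values with a trended prior, two-sided, with Benjamini-Hochberg adjustment over the 8079 genes whose mean lay over 1 unit (145.2 normalised reads) above the lowest value. Adjusted p-values describe a table selected for difference. Shares and ratios were compared with exact permutation tests (scipy 1.17.1, 252 assignments). Exon lengths came from GENCODE M21. Of the 10141 gene names, 10133 matched a separate reference list of gene symbols. Members and lists were chosen with earlier results of these data known. Named genes were the members, the 3 closest profiles of each, the cell sorting and marker genes, and the 2 called list genes at either end of the log2 differences per list. Hif1a and Slc2a13 were added after values were seen. The alternatives are given in the closing section.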

Additional observations from a re-analysis of the deposited data

Results flagged for a closer look

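In leukaemia replicate 1, Slc2a8 stood apart from the other 4 leukaemia libraries, with a deposited value of 9.40 and a gap to the next library of 0.769 of the group's range. Its share of the family reads, 7.04%, stood apart as well, with a gap of 0.730 of the range. The same library had the highest Slc2a6 of its group, the lowest promyelocyte marker sum (236521 normalised reads, against 276279 to 298349 in the other 4) and the highest monocyte marker sum (40993, against 24369 to 33625). Their part in the Slc2a8 value was not tested.

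In myeloid replicate 2, Slc2a5 stood apart with a deposited value of 8.41 and a share of 0.0167% of the family reads, since the other 4 myeloid libraries had 0 reads. With the others at 0, any read sets a library apart, so both Slc2a5 values are descriptions only. Of 20 groups of 5 values examined, 4 were set apart, these 2 included, where chance gives about 1 in 20 for values without such ties. The levels and the shares of a gene are not independent.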

How the results depend on the processing

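The 4 tested members kept their direction and their side of the threshold in the alternatives that gave them a value, with 1 exception. That was Slc2a1, with a log2 difference of 0.009 scaled to the table total (limma voom adjusted p = 0.946). Slc2a5 passed with no filter on low values (log2 difference 0.42, limma adjusted p = 2.45e-05). The share of Slc2a6 turned to -25.95 percentage points (leukaemia minus myeloid) without Slc2a3 in the sum. Leaving out each library in turn gave log2 differences of -4.81 to -4.68 for Slc2a3, -1.58 to -1.45 for Slc2a6, -0.50 to -0.40 for Slc2a1 and 0.43 to 0.50 for Slc2a8, and 7888 to 7959 genes past the threshold. The other shares and all 6 ratios kept their direction and passed in every alternative run, with an adjusted p of at most 0.0357 (exact permutation tests, without myeloid replicates 2 and 4). Equal replicate numbers were not taken as pairs, since the labels state no pairing and the correlations of deviations from the group means were 0.13, 0.23, 0.32, 0.29 and -0.02 for numbers 1 to 5. Pairing is not excluded: 4 of 5 were above 0.1, and 2 of 5 leukaemia libraries matched their own number best. The exact tests of shares and ratios take no account of it. With a replicate block, 8018 genes passed and the log2 differences were -4.74 for Slc2a3, -1.51 for Slc2a6, -0.45 for Slc2a1 and 0.46 for Slc2a8 (limma adjusted p at most 9.38e-05; the SE of Slc2a1 was 0.0563, against 0.0787). Slc2a8 lay below the stricter filter and had no value there. Scaled to the table total, 6853 genes passed, 67.4% of them higher, against 8062 and 49.2% with the deposited values. Adding Slc2a13 to the family sum, chosen after seeing the data, left every share difference with its direction. Depth limits Slc2a5 and Slc2a13, and reads outside the table are not analysed here.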
